A study of Mus musculus with 4 samples.

Results

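The genes described are 39 type I interferon-stimulated genes given by name, out of 33538 human genes in the reference. Each was followed in human cells of huNSG-SGM3 mice, where a human cell was a barcode with over 50% of its UMIs (unique molecular identifiers, each standing for 1 captured transcript) on human genes. All 39 were listed in the count files and all 39 had at least 20 UMIs over each pair of blood libraries. Type I interferons (IFN-α, IFN-β and relatives) bind the receptor pair IFNAR1 and IFNAR2, whose kinases JAK1 and TYK2 signal to the complex ISGF3. It contains STAT2 and IRF9, enters the nucleus and turns on interferon-stimulated genes, whose products sense viral nucleic acid, block translation and viral assembly, or feed back on the pathway. In blood leukocytes the same genes are used as a readout of interferon exposure, since each white cell type carries the receptor.

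The mice were of the immunodeficient strain NOD.Cg-Prkdcscid, IL2rgtm1Wjl, with the transgene Tg(CMV-IL3,CSF2,KITLG)1Eav (substrain MloySzJ), in which a CMV promoter drives human IL-3, GM-CSF and SCF, and all groups had been irradiated as pups and engrafted with CD34+ stem cells from human cord blood. Naïve mice had no surgery, sham mice a laminectomy at T9, and SCI mice a severe contusion at the same level, with tissue taken at 7 days post-surgery and an age given as 15 weeks. Live huCD45+ cells were sorted from blood of the 3 groups and from the injured cord (SCI cord, which was also enzymatically digested and enriched on a magnetic column), and counted by droplet-based 3' scRNAseq in 1 library per condition, each a pool of animals. Operated mice also received buprenorphine and gentamycin, so drugs cannot be told apart from surgery in comparisons with naïve blood. The hosts were male for naïve and sham but of both sexes for SCI. Host sex therefore cannot be told apart from injury in comparisons of SCI with naïve or sham blood.

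After filtering, 6324 naïve, 4645 sham and 5935 SCI blood cells and 118 SCI cord cells remained, 17022 in all. Median UMIs per cell differed, at 3698 for naïve, 5230 for sham, 4655 for SCI blood and 9331 for the cord. PTPRC, which encodes the sorted CD45, had a UMI in 96.6% to 99.4% of cells, and 2 of 2 platelet genes were at 0 in every library. Of the kept barcode sequences, at most 10 were shared by any pair of libraries. Barcodes were gated by lineage markers, none of them a member: CD4 T-like, Treg-like, CD8 T-like, other T, B-like, plasma-like, monocyte-like and basophil or mast-like. In naïve, sham and SCI blood the B-like class held 1194, 549 and 897 barcodes, CD4 T-like 996, 1102 and 1188, and CD8 T-like 627, 698 and 1284. Plasma-like barcodes numbered 247 in naïve blood against 15 in sham and 9 in SCI blood. Where a member's call in blood (defined below) was lost without them, both values are given.

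Since each condition had 1 library, conditions could not be tested against each other. Levels are therefore given as UMIs per 1000000 human UMIs outside ribosomal and mitochondrial genes (CPM). Because a 3' library counts 1 tag per transcript, CPM does not scale with gene length. Ratios are on the log2 scale, with a 95% interval in brackets that covers counting error only and no difference between animals. A gene is called higher or lower, or said to have risen or fallen, when its log2 ratio is past 0.5 with at least 20 UMIs over both libraries, and the same rule was applied to all human genes for the background share. Sham against naïve and SCI against sham share the sham library, so a high sham level enters both with opposite sign. SCI against naïve likewise shares a library with each of them.

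Summed over the 39 members, the level was 9169 CPM in naïve blood, 10613 in sham, 7306 in SCI and 6039 in the cord. The sham sum stood above naïve by a log2 ratio of 0.21 (0.20 to 0.22), and the SCI sum below sham with -0.54 (-0.55 to -0.53), which brought it to -0.33 (-0.34 to -0.32) against naïve. The difference between naïve and sham was thus smaller than that between sham and SCI. The groups were different animals, so a sham or SCI step below names a comparison and not a course in time. In sham against naïve blood, 5 of 39 members were called higher (12.8%), where 8.75% of all 14541 genes tested were, and 1 was called lower, where 7.54% of all genes were. The members called higher were IFI27, IFITM3, RSAD2, IFI44L and IFITM1, and the member called lower was ZBP1. The share called higher was thus not far above the background, and without plasma-like barcodes 3 members were called higher, namely IFI27, IFITM3 and RSAD2. Of the 6 calls in either direction, those of IFI27 and IFITM3 held under every alternative. Although few passed the fold, 34 of 39 members were above 0, where 60.5% of all genes were, with a median of 0.26 beside 0.067 for all genes.

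In SCI against sham blood no member was called higher (background 7.16%) and 21 of 39 were called lower (53.8%), where 8.23% of all 14510 genes were. All 39 members were below 0, where 47.1% of all genes were, with a median of -0.55 beside 0.014 for all genes. Of the 21, 18 were called lower under every alternative, and the exceptions were DHX58 (-0.45 as a mean of per-cell CPM), IFITM3 (-0.21 in T-lineage barcodes) and IFI27. The IFI27 call was lost with equal class weights (-0.47), as a mean of per-cell CPM and when thinned to 1000 UMIs. Its weakest ratio was -0.40. In SCI against naïve blood 1 member was called higher (IFI27, background 11.1%) and 11 were called lower (background 10.1%), with a median of -0.33 beside 0.067. Of these 12 calls, 7 held under every alternative, those of IFIT1, IFIT3, ISG15, MX1, IFI6, HERC5 and ZBP1. A core of 17 members, the classical set of IFIT1 to IFIT3, ISG15, MX1, the OAS family, IFI6, IFI44, IFI44L, XAF1, RSAD2, USP18, EPSTI1 and HERC5, summed to 4519.6, 5259 and 2933 CPM in naïve, sham and SCI blood. Core members had log2 ratios of 0.22 from naïve to sham and -0.84 from sham to SCI as a sum, and the other 22 members 0.20 and -0.29. The sum of the core and that of the rest therefore differed little in the sham step and by a wide margin in the SCI step. Both the members and the core were chosen with earlier results of these data known. The shares of members beside the background and this contrast are therefore descriptive only.

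**Figure D1:**
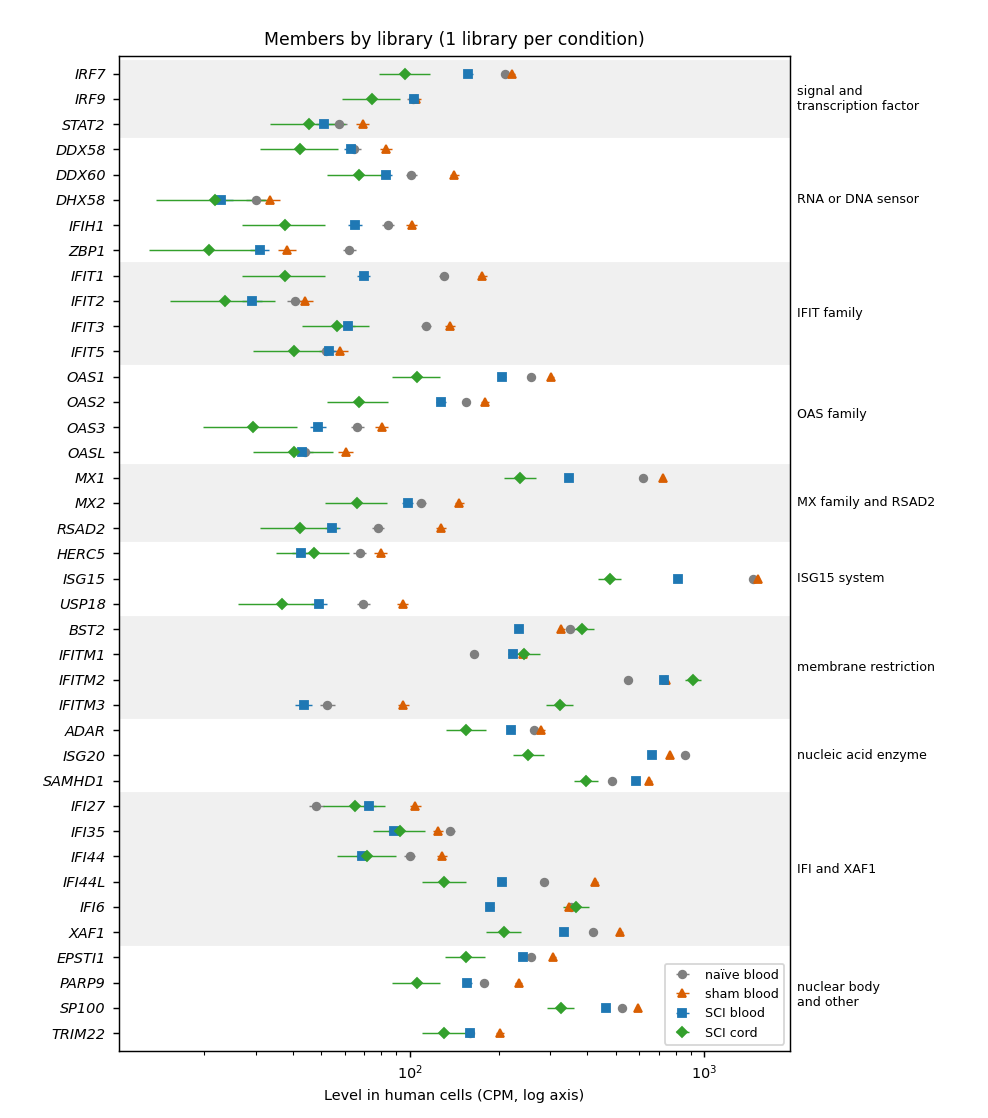
Level of each member in human cells (CPM, log axis), 1 library per condition, with bars for the 95% counting interval; members are grouped by role. For most members the sham triangle lies furthest to the right among the blood libraries and the SCI square furthest to the left, as for IFIT1 at 176 against 69.7 CPM.

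Among the signalling members, STAT2 and IRF9 belong to ISGF3 and IRF7 is the transcription factor that amplifies interferon production. IRF7 stood at 209.9 CPM in naïve blood, 221 in sham, 158 in SCI and 96.1 in the cord. STAT2 was less abundant, at 57.6 CPM in naïve blood, 69.0 in sham, 51.0 in SCI and 45.2 in the cord, whereas IRF9 was nearly level at 102 CPM in naïve blood, 105 in sham, 103 in SCI and 74.4 in the cord. None of the 3 was past the fold in sham against naïve or SCI against sham blood: from sham to SCI, the log2 ratios were -0.49 for IRF7, -0.44 for STAT2 and -0.020 for IRF9.

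The sensors of foreign nucleic acid gave a wider spread. IFIH1 (MDA5) and DDX58 (RIG-I) bind double-stranded RNA in the cytosol, DHX58 (LGP2) modulates both, DDX60 is a related helicase and ZBP1 binds Z-form nucleic acid. DDX60 had 101 CPM in naïve blood, 142 in sham, 82.8 in SCI and 66.9 in the cord, and fell from sham to SCI blood with a log2 ratio of -0.77 (-0.86 to -0.69). IFIH1, at 84.4 CPM in naïve blood, 101 in sham, 65.0 in SCI and 37.7 in the cord, was also called lower (-0.64, -0.74 to -0.54). DHX58 was the least abundant of the 39 members in SCI blood, with 29.9, 33.5, 22.9 and 21.7 CPM for naïve, sham, SCI blood and cord, and passed the fold narrowly at -0.55 (-0.72 to -0.38). DDX58 did not pass it, with 64.5, 82.9, 63.0 and 42.4 CPM in the same order and a log2 ratio of -0.40. ZBP1 took another course, since it was highest without surgery: 62.3 CPM in naïve blood, 38.3 in sham, 30.9 in SCI and 20.7 in the cord. Its log2 ratio of -0.70 (-0.83 to -0.57) from naïve to sham turned on the plasma-like barcodes, which held 372 of its 1372 naïve UMIs, and was -0.46 without them. From naïve to SCI blood ZBP1 was called lower with them (-1.01) and without them (-0.76).

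IFIT proteins bind viral RNA that lacks host cap marks and keep it from being translated. IFIT1 had 130.3 CPM in naïve blood, 176 in sham, 69.7 in SCI and 37.7 in the cord, and its log2 ratio of -1.34 (-1.43 to -1.25) from sham to SCI was the lowest of all members. IFIT3 behaved alike, with 113, 137, 61.4 and 56.5 CPM for naïve, sham, SCI blood and cord and a log2 ratio of -1.16 (-1.25 to -1.06). IFIT2, at 40.8, 43.9, 29.1 and 23.6 CPM, fell less (-0.59, -0.74 to -0.44). IFIT5 was past the fold in no blood comparison, with 51.9, 58.0, 52.9 and 40.5 CPM and -0.13 from sham to SCI. IFIT1 and IFIT3 were also called lower in SCI than in naïve blood, at -0.90 and -0.88.

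OAS enzymes make oligoadenylates that activate RNase L, which cuts RNA, whereas OASL lacks that activity and acts through RIG-I. The most abundant was OAS1, at 259 CPM in naïve blood, 301 in sham, 206 in SCI and 106 in the cord, with a log2 ratio of -0.55 (-0.61 to -0.49) from sham to SCI. OAS3 fell with a log2 ratio of -0.72 (-0.83 to -0.60), with 66.2, 80.2, 48.8 and 29.2 CPM for naïve, sham, SCI blood and cord. Neither OAS2 (155, 180.2, 128 and 66.9 CPM) nor OASL (43.8, 60.4, 43.0 and 40.5 CPM) passed the fold, at -0.498 and -0.49. OAS2 lay just inside it, so that the count of 2 called of 4 in this family rests on the threshold.

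MX1 and MX2 are GTPases that trap incoming viral particles, and RSAD2 (viperin) makes a nucleotide analogue that stops viral RNA synthesis. MX1, an abundant member, had 621 CPM in naïve blood, 722 in sham, 348 in SCI and 236 in the cord, a log2 ratio of -1.05 (-1.09 to -1.01) from sham to SCI and -0.84 from naïve to SCI. RSAD2 was called in all 3 blood comparisons: it stood at 77.996 CPM in naïve blood, 128 in sham, 54.4 in SCI and 42.4 in the cord, with log2 ratios of 0.71 (0.62 to 0.80) from naïve to sham, -1.23 (-1.33 to -1.13) from sham to SCI and -0.52 from naïve to SCI. MX2 was called lower from sham to SCI only (-0.58, -0.66 to -0.50), with 109, 147, 98.2 and 66.0 CPM for naïve, sham, SCI blood and cord. RSAD2 alone of these 3 was called higher in sham than in naïve blood, and remained so without plasma-like barcodes, but not over T-lineage barcodes alone (0.46).

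ISG15 is a ubiquitin-like protein, HERC5 the ligase that attaches it to newly made proteins, and USP18 the protease that removes it and also damps signalling at IFNAR2. ISG15 was the most abundant member in naïve, sham and SCI blood, at 1461 CPM in naïve blood, 1528 in sham, 814 in SCI and 478 in the cord. Its log2 ratio was only 0.065 (0.042 to 0.087) from naïve to sham but -0.91 (-0.94 to -0.88) from sham to SCI. USP18 had 69.3, 94.5, 49.1 and 36.7 CPM for naïve, sham, SCI blood and cord, and HERC5 67.6, 79.4, 42.6 and 47.1 CPM. Both were called lower in SCI than in sham blood, at -0.94 (-1.05 to -0.83) and -0.90 (-1.02 to -0.78). All 3 genes were thus called lower from sham to SCI (background 8.23%), and none was called from naïve to sham.

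At the membranes, the IFITM proteins hinder the fusion of viral and cell membranes and BST2 (tetherin) holds budding virions on the cell. IFITM2 had 551 CPM in naïve blood, 739 in sham, 732 in SCI and 918 in the cord, and did not pass the fold in blood, nor did it differ much between sham and SCI (-0.015, -0.047 to 0.018). IFITM1 was called higher in sham than in naïve blood (0.55, 0.49 to 0.61), with 165, 241, 225 and 245 CPM for naïve, sham, SCI blood and cord, but its SCI level stayed near that of sham (-0.10). Without plasma-like barcodes its sham ratio was 0.43. IFITM3 was both called higher in sham (0.86, 0.75 to 0.96) and called lower in SCI (-1.12, -1.24 to -1.01), with 52.4 CPM in naïve blood, 94.9 in sham, 43.5 in SCI and 323 in the cord. From naïve to sham its log2 ratio was 0.15 (-0.063 to 0.36) within basophil or mast-like and 0.31 (0.14 to 0.47) within monocyte-like barcodes, neither past the fold. Over the 7 classes it was called higher in 3, and ranged from -0.50 in Treg-like to 0.98 in CD4 T-like barcodes. The 5 basophil and mast cell marker genes summed to 118 CPM in naïve and 329 in sham blood, with none at 0. The 6 monocyte marker genes summed to 718 and 676 CPM. The part of these classes in the sham call was not tested. Monocyte-like and basophil or mast-like barcodes held 708 and 642 of the 1945 sham UMIs of IFITM3, and 82 and 331 of its 938 SCI UMIs. Within T-lineage barcodes alone its SCI ratio was -0.21. BST2 had 349, 327, 234 and 384 CPM and fell from naïve to SCI blood (-0.58, -0.63 to -0.52), although not without plasma-like barcodes (-0.49). The 3 IFITM genes are close relatives, so the assignment of reads among them is uncertain.

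Of the enzymes that act on nucleic acid, ADAR edits double-stranded RNA, ISG20 is an exonuclease and SAMHD1 breaks down deoxynucleotides. None of these 3 was past the fold in any blood comparison. SAMHD1 had 485 CPM in naïve blood, 651 in sham, 588 in SCI and 397 in the cord, and the SCI level remained above the naïve one (0.28). ISG20 had 863, 762, 662 and 253 CPM for naïve, sham, SCI blood and cord, and was highest in naïve blood. ADAR, at 264, 279.8, 221 and 155 CPM, had log2 ratios of 0.083 and -0.34 for the sham and SCI steps.

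IFI6 and IFI27 are small proteins found at mitochondria, IFI44 and IFI44L are paralogues of less known function, IFI35 is a leucine-zipper protein and XAF1 opposes the apoptosis inhibitor XIAP. IFI44L had 285 CPM in naïve blood, 426 in sham, 206 in SCI and 131 in the cord, and was called both in the sham step (0.58, 0.53 to 0.63) and in the SCI step (-1.05, -1.10 to -0.999). Without plasma-like barcodes its sham ratio was 0.44. IFI44 had 99.8, 129, 68.9 and 71.6 CPM for naïve, sham, SCI blood and cord, and XAF1 419, 518, 335 and 208 CPM. Both were called lower in the SCI step only, at -0.90 (-0.995 to -0.81) and -0.63 (-0.67 to -0.59). IFI6, at 352 CPM in naïve blood, 348 in sham, 188 in SCI and 367 in the cord, was level over all cells from naïve to sham (-0.014, -0.061 to 0.032) and fell from sham to SCI (-0.89, -0.95 to -0.84). Plasma-like barcodes held 1881 of its 7747 naïve UMIs and 31 of its 7133 sham UMIs. Within the 7 classes compared its sham ratio ranged from 0.0027 in monocyte-like to 0.26 in CD4 T-like barcodes. IFI35 had 137, 124, 88.4 and 92.3 CPM and was called lower only in SCI against naïve blood (-0.63, -0.72 to -0.55).

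IFI27 was set apart from the rest by its sham ratio, 1.12 (1.011 to 1.23), the highest of the members. It stood at 48.1 CPM in naïve blood, 104 in sham, 72.8 in SCI and 65.0 in the cord, and was the only member called higher in SCI than in naïve blood (0.60, 0.48 to 0.71). These UMIs were concentrated in few cells: 201 of the naïve, 212 of the sham and 298 of the SCI blood cells had any, and the highest 1% of cells held 71.4%, 53.4% and 46.8% of them. For ISG15, the highest 1% of cells held 8.74%, 5.83% and 8.15%. Naïve IFI27 came in large part from plasma-like barcodes, with 413 of 1060 UMIs, and without them the sham ratio was 1.63. Plasma-like barcodes of SCI blood held 0 IFI27 UMIs. The SCI against naïve call of IFI27 was kept without plasma-like barcodes. Over all alternatives its ratio in that comparison ranged from 0.48 to 2.23. IFI27 was above 0 in each of the 7 classes compared from naïve to sham.

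SP100 forms nuclear bodies, TRIM22 is a ubiquitin ligase that restricts viral transcription, PARP9 works with a partner ligase in DNA damage and interferon signalling, and EPSTI1 is an interferon-induced protein first described in breast cancer. Of these 4, PARP9 alone was called lower from sham to SCI blood (-0.58, -0.64 to -0.52), with 179, 234, 157 and 106 CPM for naïve, sham, SCI blood and cord. SP100 had 524, 594, 462 and 326 CPM, EPSTI1 259, 307, 243 and 155 CPM and TRIM22 159.6, 202, 159.6 and 131 CPM. Their sham to SCI ratios lay at -0.36, -0.34 and -0.34, all inside the fold.

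**Figure D2:**
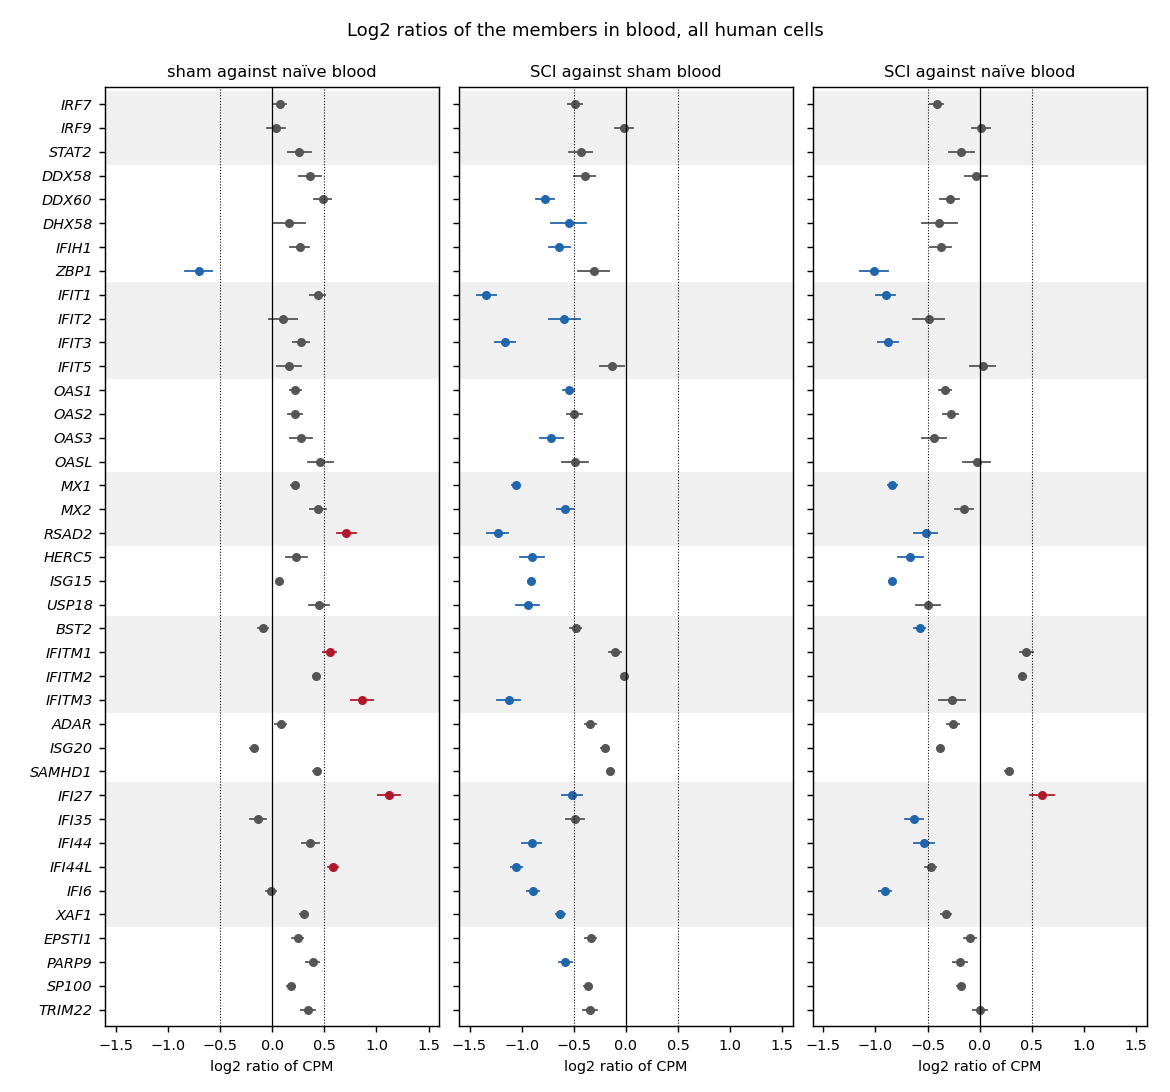
Log2 ratio of CPM of each member over all human cells, for sham against naïve, SCI against sham and SCI against naïve blood; points are ratios, bars the 95% counting interval, dotted lines the fold of 0.5, and red and blue mark members past it upwards and downwards. In the middle panel all 39 points lie left of 0 and 21 are past the line.

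The sham step was carried by many members with small differences each. The sum differed by 1444 CPM, of which IFITM2 held 13.01%, SAMHD1 11.5% and IFI44L 9.79%. MX1, XAF1 and IFITM1 followed with 6.93%, 6.88% and 5.29%. The 10 members with the largest shares held 70.7% together, and the 5 called higher were not the same as the 5 with the largest shares, since IFI44L was the one they had in common. ISG15 gave 4.65%, while ISG20 went the other way with -6.96%.

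The change was also divided arithmetically by class, which tests no cause. When each gene's change was divided into a part within gated classes and a part from their shares of UMIs, 84.2% of the summed change lay within classes. The share within was 99.1% for the core and 68.6% for the rest. Plasma-like barcodes, 15 in sham blood, gave 230 CPM of the within-class part for all members and 137 CPM for the core. Ungated barcodes, 33 in sham blood, gave 95.4 and 35.8 CPM. The division is not given without them. For the leading contributors the share within was 50.8% for IFITM2 and 41.5% for SAMHD1. IFI44L and MX1 by contrast had within-class parts of 173 and 140.1 CPM, larger than their total changes of 141 and 100.1 CPM. The order of carriers therefore depends on whether class mix is counted, with IFI44L and MX1 first within classes. These parts include the plasma-like barcodes. There, from naïve to sham, MX1 went from 540 to 1312 CPM and IFI44L from 93.8 to 625 CPM, on 147 and 70 sham UMIs.

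Core members, chosen with earlier results of these data known, held most of the SCI step. Relative to sham blood, the sum changed by -3308 CPM, and ISG15 alone held 21.6% of that. MX1 held 11.3%, IFI44L 6.67%, XAF1 5.55% and IFI6 4.85%, so that 5 genes made 49.96% of the change. The core as a whole held 70.3%. By the same division, the part within classes came to 101% of the change. Against naïve blood the sum changed by -1864 CPM, and ISG15, MX1 and ISG20 held 60.2% of it.

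**Figure D3:**
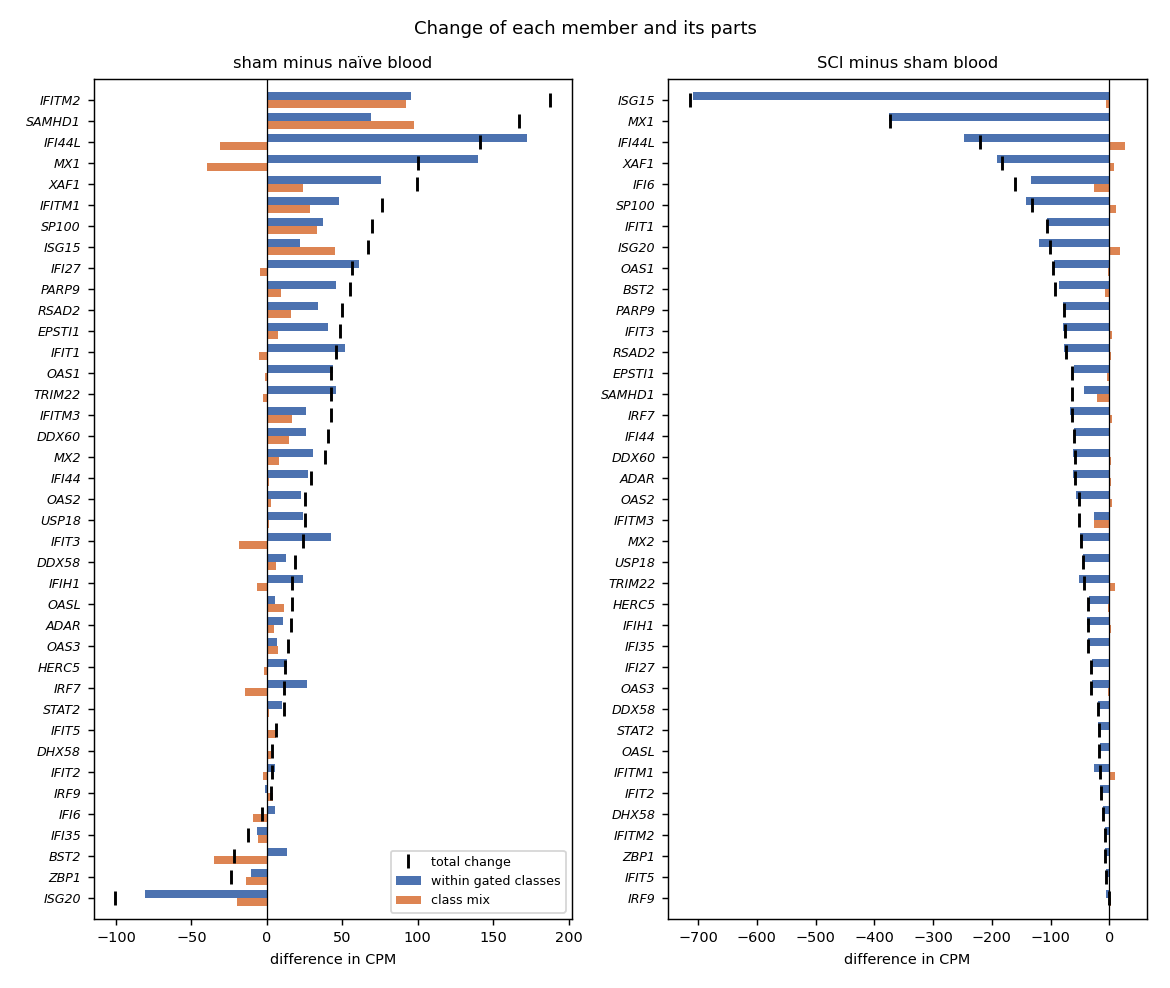
Difference in CPM of each member for sham minus naïve and SCI minus sham blood (black ticks), with its part within gated classes (blue bars) and its part from the mix of classes (orange bars); the panels have different scales. ISG15 stands out on the right at -714 CPM, whereas on the left the difference is spread over many members, with IFITM2 and SAMHD1 split between both parts.

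From sham to SCI blood members were called lower in each of the 6 gated classes with at least 50 barcodes in both libraries. In CD4 T-like barcodes 24 of 39 members were called lower (background 5.54%), in Treg-like 22 of 38 (background 9.97%) and in CD8 T-like 23 of 39 (background 6.9%). Other T had 25 (background 6.3%), B-like 17 (background 6.15%) and basophil or mast-like 25 of 39 (background 13.1%). The summed core had log2 ratios of -0.91 in CD4 T-like, -0.78 in Treg-like, -0.84 in CD8 T-like, -0.93 in other T, -0.62 in B-like and -1.15 in basophil or mast-like barcodes. B-like barcodes thus had the smallest ratio and basophil or mast-like barcodes the largest, from 6562 to 2966 CPM. Monocyte-like barcodes numbered 16 in SCI blood, too few for this comparison.

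From sham to SCI, 33 of 39 members were below 0 in every class where they had at least 20 UMIs over both libraries, which was 5 classes for IFITM3 and all 6 for the others. Called lower in all 6 were 9 members: IFIT1, IFIT3, ISG15, MX1, IFI44, IFI44L, XAF1, RSAD2 and USP18. No share of all genes is given for every class at once, so these counts stand without a background. The sizes varied by class. ISG15 ranged from -1.03 in CD4 T-like to -0.53 in B-like, MX1 from -1.74 in basophil or mast-like to -0.74 in B-like, and IFI44L from -2.12 in Treg-like to -0.70 in B-like barcodes. RSAD2 varied less, from -1.40 in CD4 T-like to -1.10 in Treg-like barcodes.

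The members with a class above 0 were IFIT5, IFI27, IFITM2, IRF9, SAMHD1 and ZBP1. IFI27 was called higher in CD8 T-like (0.79, 0.52 to 1.06, background for higher 6.18%) and B-like barcodes (1.39, 0.98 to 1.84, background 6.88%), and lower in the other 4 classes. From sham to SCI it went from 56.4 to 97.5 CPM in CD8 T-like, from 26.3 to 69.7 in B-like and from 418 to 97.9 in basophil or mast-like barcodes. Against naïve blood, SCI blood had 15 members called lower in CD4 T-like (background 7.63%), 19 in Treg-like (background 10.7%) and 20 in CD8 T-like barcodes (background 9.33%). Other T had 17 (background 7.56%), B-like 10 (background 8.53%) and basophil or mast-like 23 (background 17.2%). In that comparison 31 members were below 0 in every class where they had at least 20 UMIs, which was 5 classes for USP18 and all 6 for the other 30. IFI27 was the 1 member above 0 in all 6. Counts over every class have no background share here either.

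From naïve to sham the classes gave few calls: 5 members higher in CD4 T-like (background 4.52%), 2 in Treg-like (background 8.35%), 6 in CD8 T-like (background 6.59%) and 3 in other T (background 4.24%). B-like barcodes had 4 (background 5.65%), monocyte-like 6 (background 10.4%) and basophil or mast-like 3 (background 11.8%). Member medians ran from -0.052 in Treg-like to 0.22 in B-like barcodes. Called lower were 1 member in CD8 T-like (background 8.01%), 2 in monocyte-like (background 12.6%) and 3 in basophil or mast-like barcodes (background 16.6%), each a share below its background.

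Above 0 in all 7 classes from naïve to sham were MX2, IFI6, IFI27, IFI44L, IFITM1, USP18, IFIH1 and DDX60, again without a background share. IFI44L ranged from 0.058 in monocyte-like to 0.72 in other T barcodes. ISG15 lay close to 0 throughout, at 0.15 in CD4 T-like, 0.16 in other T, -0.12 in Treg-like, -0.11 in CD8 T-like and -0.12 in B-like barcodes. The most abundant member therefore took little part in the sham step in these classes and a large part in the SCI step.

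**Figure D4:**
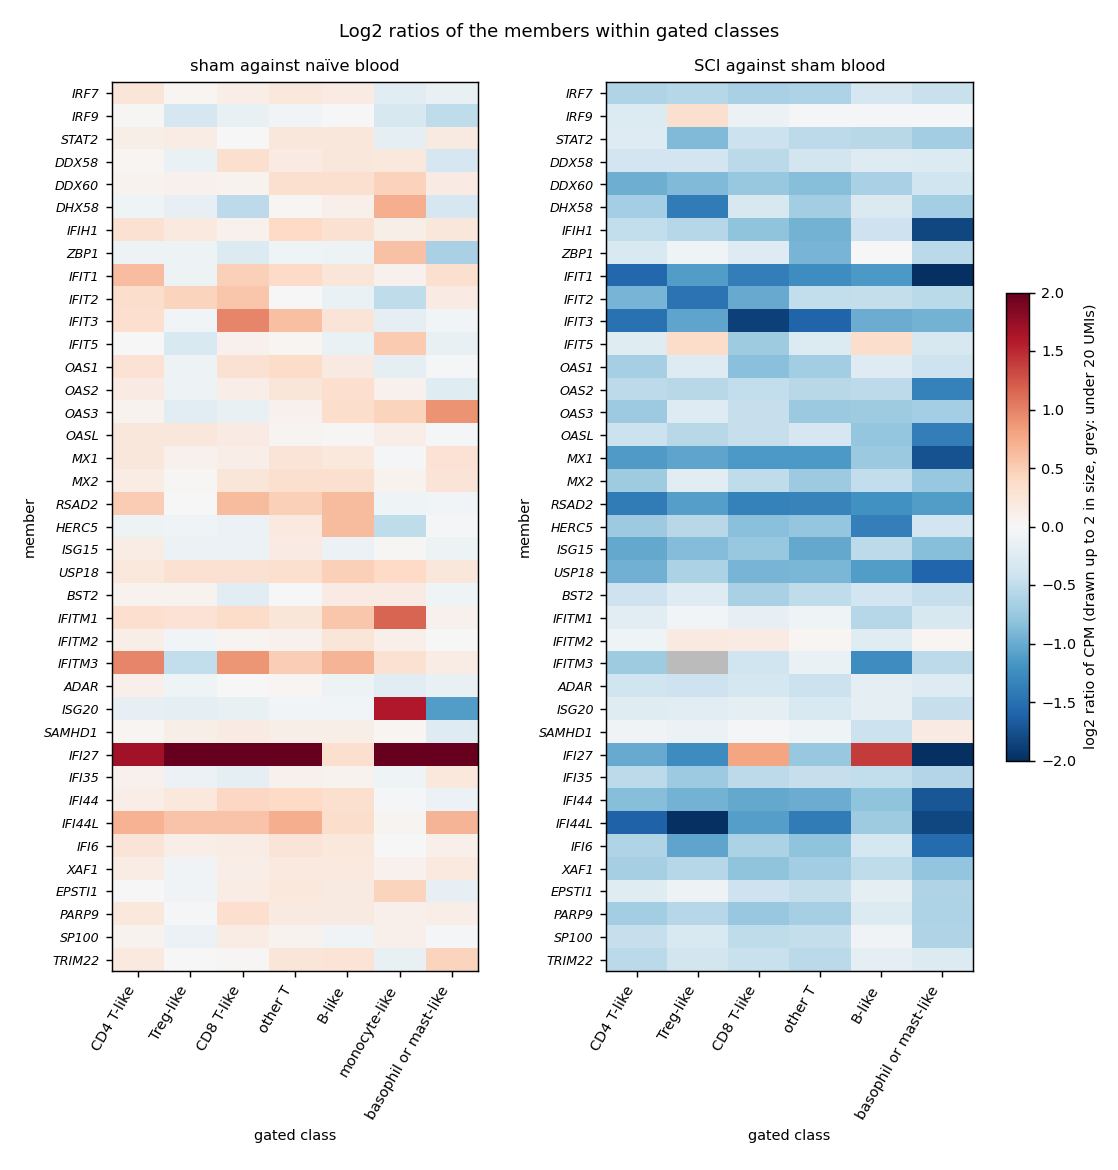
Log2 ratio of CPM of each member (rows) within gated classes (columns), for sham against naïve (7 classes) and SCI against sham blood (6 classes); red is higher, blue lower, colours stop at 2 in size and grey marks under 20 UMIs over both libraries. The right panel is blue in most cells, with IFI27 red in CD8 T-like and B-like barcodes, while the left panel is pale apart from IFI27, IFI44L, IFITM3 and scattered members.

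Levels also differed between classes within a library. The summed members were highest in basophil or mast-like barcodes of naïve and sham blood, at 12626 and 13313 CPM, and in B-like barcodes of SCI blood, at 9479 CPM. They were lower in CD8 T-like barcodes, at 8617, 9224 and 6468 CPM in naïve, sham and SCI blood. Gene by gene, B-like barcodes were the highest class for 16, 22 and 23 members in the 3 libraries and basophil or mast-like for 11, 10 and 7. The highest class was the same in all 3 for 25 of 39 members. This ranking included the monocyte-like class of SCI blood, which had 16 barcodes and was highest for 4 members.

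Members could differ more between classes than between conditions, for which 3 genes chosen after their values were seen are given. IFITM3 in naïve, sham and SCI blood had 1053, 1166 and 810.0 CPM in basophil or mast-like barcodes, but 8.21, 5.87 and 5.80 in Treg-like barcodes. IFITM2 in basophil or mast-like barcodes held at 2408, 2416 and 2489 CPM. SAMHD1 showed the reverse for the same class, with 86.0, 72.6 and 80.8 CPM, beside 815 and 834 in monocyte-like barcodes of naïve and sham blood. For these 3 genes the gap between classes exceeded any gap between blood libraries over all cells.

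To compare single cells at equal depth, each was thinned at random to 1000 human UMIs, which left out no cell. The 17 core members then averaged 3.59 UMIs a cell in naïve, 4.10 in sham and 2.09 in SCI, and medians of 3, 4 and 1. At least 3 core UMIs were found in 58.1% (95% interval 56.9 to 59.3) of naïve, 64.6% (95% interval 63.2 to 66.0) of sham and 30.9% (95% interval 29.7 to 32.1) of SCI blood cells, before thinning in 96.6%, 99.3% and 86.4%. No core UMI was found in 8.51%, 6.05% and 24.8%. The SCI difference was thus spread over the whole distribution, and the 10% of cells with the most core UMIs held 27.0%, 26.2% and 34.3% of the total in naïve, sham and SCI blood.

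By class, the share of thinned cells with at least 3 core UMIs in naïve, sham and SCI blood was 55.8%, 63.0% and 29.7% in CD4 T-like barcodes. It was 46.4%, 51.0% and 20.2% in CD8 T-like, and 68.3%, 74.9% and 46.8% in B-like barcodes. The order of the libraries was the same in all 3 classes, with sham first and SCI last. An ISG15 UMI was found in 59.4%, 61.0% and 37.3% of thinned cells, MX1 in 35.3%, 38.8% and 20.0%, and IFI44L in 20.4%, 27.3% and 12.4%. Since no gated class lacked these genes, no class could set a floor for free RNA in these shares.

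**Figure D5:**
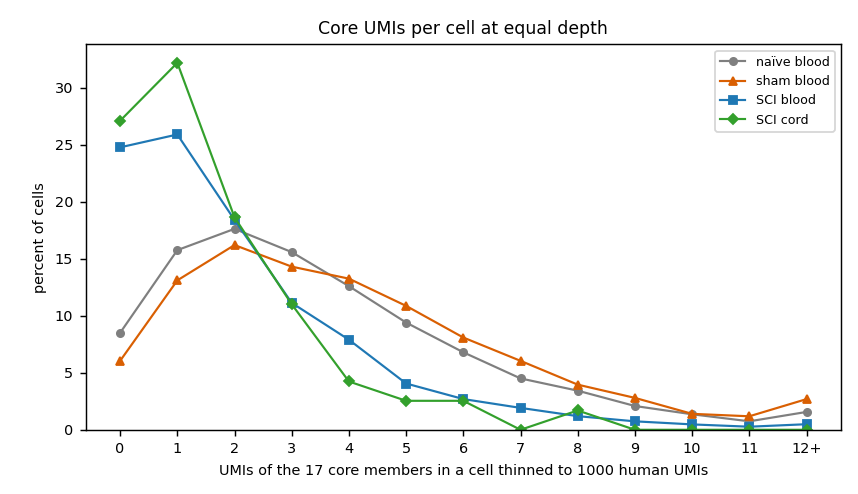
Percent of human cells (vertical axis) by number of UMIs of the 17 core members after thinning to 1000 human UMIs (horizontal axis, last point 12 or more), 1 line per library. SCI blood has 24.8% of cells at 0 against 6.05% in sham blood, and the SCI cord line rests on 118 cells.

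The injured cord gave 118 cells, and its members are read against SCI blood with that depth in mind. In SCI cord 3 members were called higher (background 24.8%) and 19 lower (background 20.9%), with a median of -0.46 beside -0.011 for all genes. Higher were IFITM3 (2.89, 2.71 to 3.07), IFI6 (0.97, 0.81 to 1.12) and BST2 (0.72, 0.57 to 0.86). The largest ratios downwards were those of ISG20 (-1.39, -1.57 to -1.22) and OAS1 (-0.96, -1.25 to -0.69). The 6 monocyte marker genes summed to 129 CPM in SCI blood and 6659.5 in cord, and over T-lineage barcodes alone the IFITM3 ratio was -0.11, with 9 members lower, where 18.0% of all genes were. Of the 22 calls, 1 held under every alternative, that of BST2. One alternative, UMIs per cell, changed the sign of 18 of them, where the median of all genes was 1.30. Digestion and magnetic enrichment were applied to the cord only and cannot be told apart from the site.

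Within human blood, the members whose level followed ISG15 most closely over the 21 profiles of 7 classes in 3 libraries were USP18 (Pearson r = 0.75 of log2 CPM), ADAR (0.70), DHX58 (0.70), MX1 (0.69) and DDX60 (0.67). IFITM3 followed it least (-0.28). The order changed when each class's mean was removed, with the highest values for XAF1 (0.96), ADAR (0.95), MX1 (0.95) and IFIT1 (0.95). USP18 then had 0.86, IFITM3 0.39 and IFI27 the lowest value (-0.059). The monocyte-like profile of SCI blood rested on 16 barcodes, with 2 UMIs of USP18, 1 of DHX58 and 0 of IFI27. The values of r without it are not given. Profiles of a library share its depth and animals, so these values describe likeness only.

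Upstream of the members, transcripts of the 17 type I interferon genes listed were nearly absent from the sorted cells, with 4, 7 and 2 UMIs in naïve, sham and SCI blood and 0 in SCI cord. IFNA5 had 2, 3 and 1 of these and IFNE 2, 2 and 1, while IFNK and IFNW1 had 1 UMI each, both in sham. IFNG, the type II interferon, stood at 3.04 CPM in naïve blood, 4.15 in sham, 6.59 in SCI and 11.3 in the cord, and was higher in SCI than in sham blood (0.66, 0.27 to 1.07), the opposite direction to the members. IFNG was not examined within classes. IFNL1, a type III interferon, had 2, 2 and 11 UMIs in blood and 2 in cord.

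The receptors did not follow the members. IFNAR1 had 102, 73.1, 75.8 and 65.0 CPM for naïve, sham, SCI blood and cord, with log2 ratios of -0.48 for the sham step and 0.051 for the SCI step, and IFNAR2 had 61.1, 54.8, 50.5 and 65.0 CPM. IFNGR1 had 79.2, 70.8, 76.4 and 156 CPM, IFNGR2 73.9, 54.7, 58.0 and 53.7 CPM and IL10RB 5.31, 5.95, 5.20 and 7.54 CPM. IFNLR1 alone among the 6 receptor genes was called in blood, lower in sham than in naïve (-0.82), at 6.31 and 3.56 CPM. It was also the one called from naïve to SCI blood, at 3.48 CPM (-0.85).

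Of the kinases, JAK1 had 437, 495, 507 and 299 CPM and TYK2 28.2, 31.0, 29.3 and 34.9 CPM, neither past the fold in blood. The feedback inhibitors SOCS1 (54.4, 64.5, 53.8 and 313 CPM) and SOCS3 (31.5, 47.7, 44.3 and 74.4 CPM) had SCI-step ratios of -0.26 and -0.11, and SOCS3 was called higher in sham than in naïve blood (0.60). Over the 57 genes of this list, 35 were tested, of which 2 were called higher and 2 lower in the sham step and 1 higher and 5 lower in the SCI step. Over all genes these shares were 8.75% and 7.54% in the sham step and 7.16% and 8.23% in the SCI step. Medians of the list were 0.11 and -0.16. Of the 13 further induced genes in it, 4 were called lower from sham to SCI, namely CMPK2 (-1.05), SAMD9 (-0.66), PLSCR1 (-0.64) and EIF2AK2 (-0.53).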

How the data were processed

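The authors aligned reads with CellRanger 3.1.0 to a combined human and mouse reference (hg38 and mm10 in the submitters' processing notes) and deposited UMI counts per gene and barcode without normalisation. All further values were derived here in Python 3.11.15 (scanpy 1.11.5, pandas 2.3.3, scipy 1.17.1, numpy 2.4.6, figures in matplotlib 3.10.9). TMM factors, an alternative scaling, came from edgeR 4.0.16 in R 4.3.3.

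Human barcodes (over 50% human UMIs) were dropped when low in log UMIs or genes, or high in mitochondrial or ribosomal percent, by over 3 MADs from their library's median (318, 237, 252 and 20 in naïve, sham and SCI blood and cord). Scrublet's own threshold marked 0, 4, 192 and 10 barcodes and was replaced by the highest scores up to 0.8% per 1000 barcodes; of those, the ones with over 3000 genes were dropped (71, 90, 96 and 0), so others stayed in. Human UMIs kept were 29402676, 27695487, 31192289 and 1430777.

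A barcode entered a lineage with at least 3 UMIs over its markers and at most 1 UMI, or 20% of that sum, over those of other lineages; FOXP3, CD4, CD8A and CD8B split T cells, and MZB1, TNFRSF17 and DERL3 plasma-like from B-like. Barcodes of mixed or no lineage were not compared as classes, but counted as groups of their own where a change was split into class mix and level within classes. Intervals are exact Poisson, exact binomial for shares and conditional binomial for ratios, with 0.5 counts added to ratios. The ratios, their intervals and the thinning were tested on simulated data. Values in all libraries were to be given for members above 50 CPM in a library or past the fold in a blood comparison, which all 39 met. The members, the core and the pathway list were chosen with earlier results of these data known, and 1 gene of the pathway list is not reported here. Alternatives were other scalings, filters, gates and depths.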

Additional observations from a re-analysis of the deposited data

Results flagged for a closer look

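ISG20 moved in opposite directions in 2 classes from naïve to sham blood, with a log2 ratio of 1.603 (1.16 to 2.09) in monocyte-like and -1.12 (-1.68 to -0.57) in basophil or mast-like barcodes. Its level went from 70.3 to 215 CPM in the first and from 229 to 105 CPM in the second, and the difference was not tested. After thinning to 1000 UMIs, an ISG20 UMI was found in 14 of 133 naïve and 12 of 88 sham monocyte-like barcodes, 10.5% (5.88 to 17.03) and 13.6% (7.25 to 22.6) with exact binomial intervals that overlap. In basophil or mast-like barcodes it was found in 15 of 89 (16.9%) and 10 of 117 (8.55%).

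IFI27 likewise went opposite ways from sham to SCI blood, with 1.39 in B-like and -2.08 in basophil or mast-like barcodes, and this difference was not tested either. With 1 library per condition the counting intervals do not cover differences between animals.

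Human UMIs in barcodes of mouse cells (at most 10% human UMIs), which the comparisons do not use, held the members at 9567, 9198, 7108 and 6115 CPM for naïve, sham, SCI blood and cord, a signal above the limit that a count of 0 allows. In human cells the same sums were 9169, 10613, 7306 and 6039 CPM. The value in the cells lay inside the exact Poisson interval of the mouse barcodes for naïve, SCI blood and cord, and above it for sham (8267 to 10205 CPM). These sums rested on 181, 356, 158 and 24 member UMIs, and the part of such UMIs in the values per cell was not tested.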

How the results depend on the processing

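No paired analysis was possible because each condition had 1 library and no replicate numbers. The sham step, whose sum had a log2 ratio of 0.21, gave 0.19 over all human genes, 0.14 with TMM factors, 0.55 in UMIs per cell, 0.15 as a mean of per-cell CPM, 0.17 thinned to 1000 UMIs, 0.15 without plasma-like barcodes, 0.14 in the T lineage and 0.15 with equal class weights. Its 5 members called higher became 29 in UMIs per cell, where 34.5% of all genes were called higher, and 3 under per-cell CPM (6.44% of all genes), without plasma-like barcodes (6.39%), in the T lineage (4.57%) and with equal class weights (5.76%). UMIs per cell also moved the median of all genes, to 0.41 (sham step), -0.27 (SCI step), 0.13 (SCI against naïve) and 1.30 (cord), so changes there are read relative to these.

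The SCI step kept its direction and 20 to 33 members called lower, where 4.49% to 18.0% of all genes were. Its sum gave -0.64 over all human genes, -0.55 with TMM factors and thinned, -0.82 in UMIs per cell (33 members) and -0.58 in the T lineage. SCI against naïve gave -0.45 over all genes (17 members lower, all genes 12.95%), -0.41 with TMM, -0.27 in UMIs per cell, -0.39 per cell and without plasma-like barcodes, -0.38 thinned, -0.44 in the T lineage (18 members, all genes 7.61%) and -0.37 with equal class weights. No summed ratio within a class moved by more than its counting interval when the gate was set at 2 or 5 UMIs.

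The cord was least settled. Its sum gave -0.17 over all genes (11 members lower, all genes 17.4%), -0.34 with TMM, -0.18 in the T lineage (9, all genes 18.0%), -0.23 with equal class weights (11, all genes 19.1%) and 1.03 in UMIs per cell (0, all genes 2.69%). In UMIs per cell the median of all genes was 1.30, and 87.7% of all genes were called higher. These ratios changed sign there but all stayed below that median: IFIT1 0.44, ISG15 0.54, MX1 0.76, MX2 0.74, OAS1 0.35, OAS2 0.39, OAS3 0.59, IFI44L 0.66, IRF7 0.60, XAF1 0.63, SP100 0.81, ADAR 0.81, SAMHD1 0.74, IFIH1 0.54, DDX58 0.75, ZBP1 0.77, EPSTI1 0.66 and PARP9 0.75. IRF7 reversed when thinned (0.27), and IFITM3 (-0.11), SP100 (0.075) and ZBP1 (1.17) in the T lineage.

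At 2000 UMIs per cell, the shares with at least 3 core UMIs were 85.6%, 89.8%, 58.9% and 48.3% in naïve, sham and SCI blood and cord, and without thinning 96.6%, 99.3%, 86.4% and 96.6%, so they rest on depth. Why these values moved was not tested. With 1 library per condition, depth limits the cord most.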
